A study of Mus musculus with 6 samples.

Results

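Immediate early genes are the genes that a cell switches on at once when a signal arrives. The 10 described here were chosen by symbol, as the Fos family (Fos, Fosb, Fosl1, Fosl2), the Jun family members Jun and Junb, the Egr family members Egr1, Egr2 and Egr3, and Nr4a1. They are 10 of the 42365 rows of a table of RNA-seq counts per gene from mouse neural progenitor cells, cultured cells that can form neurons and glia. All 10 passed the filter on low counts in both fits. The 6 libraries fell into 3 groups of 2: labelled KO clone 1 and labelled KO clone 2, both with the genotype KO, and 2 parental libraries with the genotype WT, whose titles call them clone 1 and clone 2. Nothing in the labels gives a treatment, a stimulus or a time. The genotype is given as labelled throughout, and each direction below rests on the label.

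Immediate early genes are transcribed within minutes of a signal reaching a cell, without the need for new protein. The kinase ERK and calcium signals act on the factors SRF, its Ets partners and CREB, which already sit at their promoters, and both the RNAs and the proteins are short-lived. Fos proteins pair with Jun proteins to form AP-1, Egr proteins are zinc finger activators held back by the NAB proteins, and Nr4a1 is an orphan nuclear receptor. In neural cells they are known as readouts of growth factor signalling and of neuronal activity.

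Each KO group is a single clone, so the 2 libraries of a clone repeat that clone and not the genotype. The labels do not say if they are separate cultures, so the spread between them, and the p-values built on it, may be technical. The protocol names a kit for ultra-low input and a TruSeq kit without saying which library had which, so kit and group cannot be told apart. Totals ran from 58871554 to 69530032 counts a library. A level is given as mean ± SD over a group (n = 2 libraries), and a log2 fold change with its standard error (SE). CPM are counts scaled to a common library total, after TMM scaling. Of the 10 genes, Fosl1 had the widest relative spread between the libraries of a group.

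The cells were checked against marker lists. The 10 neural progenitor markers summed to 2646 to 2665 CPM in labelled KO clone 1, 3268 to 3282 CPM in labelled KO clone 2 and 3065 to 3074 CPM in parental cells, with 9 of 10 at 1 CPM or more in each. Against parental cells, 5 of them were higher and 5 lower in labelled KO clone 1 by the edgeR test described below. In labelled KO clone 2, 4 were higher and 5 lower. Over all genes tested, 27.3% were higher and 27.2% lower in labelled KO clone 1, and 26.7% and 26.8% in labelled KO clone 2. These shares are the background for each marker list here. Sox1 averaged 3.35 CPM in labelled KO clone 1, 3.17 in labelled KO clone 2 and 60.4 in parental cells. Fabp7 averaged 601, 606 and 164 CPM in the same order. Astrocyte markers (9 genes) summed to 2966 to 3013 CPM in labelled KO clone 1, 3883 to 3935 in labelled KO clone 2 and 9980 to 10149 in parental cells. Gfap averaged 1.59, 9.7 and 2689 CPM and Apoe 287, 240 and 2819 CPM in that order. Of the 9, 1 was higher and 7 lower in labelled KO clone 1 than in parental cells, and 3 were higher and 6 lower in labelled KO clone 2. S100b was higher in both clones, and Slc1a2 and Aldoc were higher in labelled KO clone 2 only. Oligodendrocyte lineage markers (9 genes) summed to 5241 to 5343 CPM in labelled KO clone 1, 6186 to 6451 in labelled KO clone 2 and 1289 to 1291 in parental cells. Proliferation markers (8 genes) stood furthest apart, with sums of 1144 to 1172 CPM in labelled KO clone 1, 716 to 720.1 in labelled KO clone 2 and 13.2 to 14.8 in parental cells. Neuron markers (8 genes) summed to 1351 to 1505 CPM in labelled KO clone 1, 1040.2 to 1063 in labelled KO clone 2 and 1066 to 1074 in parental cells, nearly all of it Map2 (mean 1402, 1035 and 974 CPM in labelled KO clone 1, labelled KO clone 2 and parental cells). By gene, 6 of the 8 neuron markers were lower in labelled KO clone 1 than in parental cells (median log2 fold change -1.88) and 6 in labelled KO clone 2 (median -2.20). The other 2, Map2 and Syt1, were higher in labelled KO clone 1 and not called in labelled KO clone 2. Dcx averaged 10.4 CPM in labelled KO clone 1, 8.43 in labelled KO clone 2 and 66.7 in parental cells. The oligodendrocyte lineage sum is mostly Olig1 and Olig2: 3 of 8 tested markers were higher and 4 lower in labelled KO clone 1, and 4 higher and 4 lower in labelled KO clone 2, each against parental cells. Microglia, endothelial, and fibroblast and mural cell markers summed to at most 5.29 CPM in any library, and Itgam, Cdh5 and Lum had no count in labelled KO clone 2. Most of these sums differ between the groups compared below, and their part in the immediate early gene differences was not tested. In bulk RNA, fewer cells of a type and less RNA per cell cannot be told apart.

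The stretch just before the transcription start is shown for 5 genes whose RNA moved in different ways: Fos and Junb, lower in both labelled KO clones, Jun, higher in both, and Egr2 and Nr4a1, which differ most between the clones of those printed. The sequences are the 250 bases before the start in RefSeq (GRCm38.p6), where 7 of the 10 genes had an entry. Capitals mark TGACG, or CGTCA where it lies on the other strand, the core of the cAMP response element that CREB binds, and in Egr2 also the CArG box, the element that SRF binds. Windows lie at chr12:85473640-85473889 (+) for Fos, chr4:95052223-95052472 (-) for Jun, chr8:84978749-84978998 (-) for Junb, chr10:67537619-67537868 (+) for Egr2 and chr15:101266596-101266845 (+) for Nr4a1.
Fos: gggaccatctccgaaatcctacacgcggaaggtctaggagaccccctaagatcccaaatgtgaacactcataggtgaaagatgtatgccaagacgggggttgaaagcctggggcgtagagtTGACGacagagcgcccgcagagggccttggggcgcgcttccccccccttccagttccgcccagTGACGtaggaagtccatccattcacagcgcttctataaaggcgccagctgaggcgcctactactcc
Jun: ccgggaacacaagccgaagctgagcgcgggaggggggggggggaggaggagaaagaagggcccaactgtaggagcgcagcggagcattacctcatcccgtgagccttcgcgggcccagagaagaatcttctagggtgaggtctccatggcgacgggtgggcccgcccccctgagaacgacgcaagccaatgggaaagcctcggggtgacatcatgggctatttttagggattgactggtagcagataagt
Junb: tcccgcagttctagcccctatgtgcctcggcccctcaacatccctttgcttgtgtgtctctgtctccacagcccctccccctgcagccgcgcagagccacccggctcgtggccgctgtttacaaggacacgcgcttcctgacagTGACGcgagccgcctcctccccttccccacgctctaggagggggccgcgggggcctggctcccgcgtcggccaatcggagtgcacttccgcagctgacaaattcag
Egr2: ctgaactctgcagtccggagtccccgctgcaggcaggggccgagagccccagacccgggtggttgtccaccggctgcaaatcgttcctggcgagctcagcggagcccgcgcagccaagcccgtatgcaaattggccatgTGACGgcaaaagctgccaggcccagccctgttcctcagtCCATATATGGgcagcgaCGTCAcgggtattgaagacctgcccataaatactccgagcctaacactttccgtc
Nr4a1: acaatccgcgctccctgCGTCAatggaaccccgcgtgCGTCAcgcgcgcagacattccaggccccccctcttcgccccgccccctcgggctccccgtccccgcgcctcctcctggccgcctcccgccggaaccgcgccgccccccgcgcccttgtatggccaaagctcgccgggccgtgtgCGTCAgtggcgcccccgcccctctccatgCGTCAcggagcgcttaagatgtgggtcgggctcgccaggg

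The Fos window held 2 matches to TGACG, at 62 to 66 and 125 to 129 bases before the start, and a TATAAA at 28 to 33 bases. Junb held 1 match, at 102 to 106 bases, and Nr4a1 held 4. Egr2, which has 5 overlapping or neighbouring windows, held 2 in the printed window, with the CArG box between them at 63 to 72 bases. Its windows from 67537620 and 67537680 overlap the printed window and hold the same matches. The window from 67535249 held no TGACG and no CArG box, and that from 67537316 held a CArG box but no TGACG. A gene with several windows has more chances of a match than the shares per window below. No TGACG lay in the Jun or Fosl2 window, and Fosb held 1. Of 32851 windows of this length in the table, 17.8% held TGACG on either strand, 1.47% a CArG box and 12.4% TATAAA. The full element TGACGTCA, which contains TGACG, and the AP-1 site TGANTCA lay in none of the windows of these genes, against 1.55% and 6.75% of all windows. The Ets site CCGGAA and the Egr site GCGNGGGCG were also searched. The Ets pattern lay in the Nr4a1 window and in the Egr2 window from 67537316. The Egr pattern lay in the Fosl2, Fosb and Nr4a1 windows. The Fos, Jun and Junb windows held neither. Only exact patterns were searched, so a variant such as tgacatca in the Jun window was not counted. Elements further than 250 bases before the start, for CArG boxes too, lay outside the windows. Of the genes with TGACG in a window, each clone set on its own against parental cells, Fos and Junb were lower in both. Egr2 was higher in both, and Fosb and Nr4a1 went opposite ways. Jun, higher in both, had none. A link between matches and direction was not tested, and a match in letters is not a measured site.

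The immediate early genes did not move together. Egr1 and Jun were higher in the labelled KO clones than in parental cells, Fos, Fosl2 and Junb were lower, and Fosb, Fosl1, Egr2, Egr3 and Nr4a1 did not pass the test when the 2 clones served as the replicates of the genotype. That is 5 of 10 called, 2 higher and 3 lower, by edgeR's quasi-likelihood test with Benjamini-Hochberg adjustment under 0.05, where 26.7% of all 24506 genes tested were called (13.0% higher and 13.6% lower). On the parental side of this test the 2 parental libraries were entered singly. Their titles call them clone 1 and clone 2, but the labels do not say how they were derived. Their spread, which also enters the p-values, may therefore be that between libraries only. The median log2 fold change of the 10 was 0.33, against 0.03 over all genes tested. Without parental library 1, and likewise without parental library 2, 1 of the 10 was called (Fosl2, lower). Without the filter on low counts 3 were called (Fosl2, Jun and Egr1), and with single libraries as replicates 9, among them Nr4a1 as lower.

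Set against parental cells on its own, with libraries as replicates, each clone had 9 of the 10 called. In labelled KO clone 1, 6 were higher and 3 lower, where 54.5% of 23400 genes were called (27.3% higher and 27.2% lower), with a median log2 fold change of 0.55 against -0.01 over all genes. In labelled KO clone 2, 4 were higher and 5 lower, where 53.5% were called (26.7% higher and 26.8% lower), with a median of -0.58 against 0.02. Both comparisons share the parental libraries. Together the 10 genes took 0.378% and 0.369% of all counts in labelled KO clone 1, 0.217% and 0.218% in labelled KO clone 2, and 0.212% and 0.215% in parental cells.

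**Figure D1:**
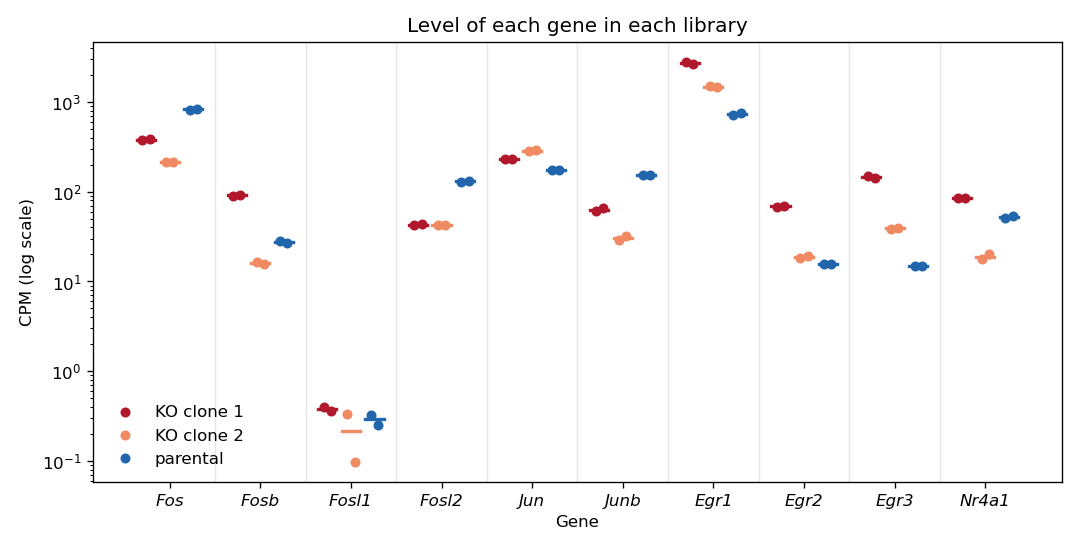
Level of the 10 immediate early genes in CPM on a log scale. Points are single libraries, bars the mean of the 2 libraries of labelled KO clone 1, labelled KO clone 2 and parental cells. Egr1 averages 2687 CPM in labelled KO clone 1, 1483 in labelled KO clone 2 and 733 in parental cells, while Fos averages 381 in labelled KO clone 1, 212 in labelled KO clone 2 and 825 in parental cells.

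Fos, the partner of Jun in the classical AP-1 dimer (12:85473890-85477273, plus strand, GRCm38), had 377 and 385 CPM in labelled KO clone 1, 212 and 213 CPM in labelled KO clone 2, and 821 and 829 CPM in parental cells. Every labelled KO library lay below both parental libraries, and labelled KO clone 2 lay below labelled KO clone 1. The log2 fold change was -1.45 ± 0.28 (SE) with the clones as replicates (adjusted p 0.0194), -1.12 ± 0.04 for labelled KO clone 1 and -1.96 ± 0.04 for labelled KO clone 2. The call was lost without parental library 1 (adjusted p 0.0867) or 2 (0.0853).

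Fosl2 (Fra-2), a Fos relative without the strong activation domain of Fos (5:32135801-32157842, plus strand), had 42.6 and 43.2 CPM in labelled KO clone 1, 42.0 and 42.4 CPM in labelled KO clone 2, and 128 and 132 CPM in parental cells. All 4 labelled KO libraries fell to nearly the same level, below both parental libraries. With the clones as replicates, the log2 fold change was -1.58 ± 0.08 (SE; adjusted p 0.000391), and this call was kept with each library left out in turn. Labelled KO clone 2 and labelled KO clone 1 differed by -0.02 ± 0.05 on the log2 scale (adjusted p 0.750).

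Fosb, known for a truncated splice form that lasts long in neurons (7:19302696-19310051, minus strand), went opposite ways in the 2 clones. It had 90.1 and 92.8 CPM in labelled KO clone 1, 16.6 and 15.8 CPM in labelled KO clone 2, and 27.9 and 26.5 CPM in parental cells. The 2 libraries of labelled KO clone 1 lay above both parental libraries and those of labelled KO clone 2 below both. The log2 fold change against parental cells was 1.75 ± 0.06 (SE) in labelled KO clone 1 (adjusted p 6.45e-14) and -0.75 ± 0.06 in labelled KO clone 2 (adjusted p 1.09e-08). With the clones as replicates it was 1.01 ± 0.84 (adjusted p 0.441). Counts per gene do not tell the splice forms of Fosb apart.

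Fosl1 (Fra-1), an AP-1 member typical of growing and transformed cells (19:5447547-5455946, plus strand), stayed under 1 CPM in every library. It had 26 and 25 counts in labelled KO clone 1, 22 and 6 in labelled KO clone 2, and 21 and 15 in parental cells. The libraries of labelled KO clone 2 spread over the range of the parental ones, and no comparison passed the test. A change of Fosl1 was not detectable at this depth: its log2 fold change was 0.38 ± 0.47 (SE) in labelled KO clone 1 and -0.42 ± 0.51 in labelled KO clone 2. Fosl1 also shares 1163 bases of exon with Ccdc85b on the other strand (495 to 1079 counts), and the sources used here do not give the strand setting of the counting, so its reads are uncertain.

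Jun, the AP-1 member phosphorylated by JNK (4:95049034-95052222, minus strand, a single exon), rose in both labelled KO clones. It had 229 and 233 CPM in labelled KO clone 1, 280.3 and 290.2 CPM in labelled KO clone 2, and 175 and 175 CPM in parental cells. The groups did not overlap, with labelled KO clone 2 on top. Jun changed by 0.59 ± 0.13 (SE) on the log2 scale with the clones as replicates (adjusted p 0.0255), 0.40 ± 0.04 for labelled KO clone 1 and 0.70 ± 0.04 for labelled KO clone 2. Leaving out parental library 1 or 2 gave an adjusted p of 0.190 or 0.197, which misses the threshold. Jun shares 232 bases with its antisense gene Junos, which had 89 to 130 counts a library against 10317 to 18574 for Jun.

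Junb, which can hold back Jun at shared promoters (8:84974484-84978718, minus strand), moved the other way. It had 61.6 and 65.0 CPM in labelled KO clone 1, 29.1 and 32.5 CPM in labelled KO clone 2, and 154 and 152 CPM in parental cells. Both clones lay below both parental libraries, and labelled KO clone 2 below labelled KO clone 1. The log2 fold change was -1.67 ± 0.34 (SE) with the clones as replicates (adjusted p 0.0256), -1.27 ± 0.05 for labelled KO clone 1 and -2.31 ± 0.06 for labelled KO clone 2. This call too was lost without parental library 1 (adjusted p 0.188) or 2 (0.185). Junb shares 173 bases of exon with Prdx2 on the other strand (15700 to 18889 counts), so reads in that stretch are uncertain for the same reason as those of Fosl1.

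Egr1, the zinc finger factor most used as a marker of ERK signalling and neuronal activity, had 2755 and 2619 CPM in labelled KO clone 1, 1485 and 1481 CPM in labelled KO clone 2, and 719 and 747 CPM in parental cells. All labelled KO libraries lay above both parental ones, with labelled KO clone 1 on top. Egr1 changed by 1.54 ± 0.28 (SE) on the log2 scale with the clones as replicates (adjusted p 0.0172), 1.87 ± 0.04 for labelled KO clone 1 and 1.02 ± 0.04 for labelled KO clone 2. With parental library 1 or 2 left out, the adjusted p of Egr1 was 0.0965 or 0.0879 and the call was lost.

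Egr3, a relative of Egr1 that growth factors and neuronal activity also induce (14:70077203-70082614, plus strand), had the largest log2 fold change of the 10 in labelled KO clone 1. It had 151 and 142 CPM in labelled KO clone 1, 38.7 and 39.2 CPM in labelled KO clone 2, and 14.7 and 15.0 CPM in parental cells. The groups did not overlap. Against parental cells the log2 fold change was 3.30 ± 0.05 (SE) in labelled KO clone 1 (adjusted p 2.15e-17) and 1.39 ± 0.05 in labelled KO clone 2 (adjusted p 1.02e-12). With the clones as replicates it was 2.67 ± 0.68 and missed the threshold (adjusted p 0.0565). It passed without library 2 of labelled KO clone 1 (adjusted p 0.0415), without library 1 of labelled KO clone 2 (0.0394), with a filter at 5 CPM (0.0483), by the DESeq2 test (0.00809) and with single libraries as replicates (2.68e-16). Over all alternatives its adjusted p ran up to 0.564.

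Egr2, known for its role in myelinating Schwann cells and in the hindbrain (10:67535475-67542188, plus strand), had 67.8 and 69.0 CPM in labelled KO clone 1, 18.4 and 19.0 CPM in labelled KO clone 2, and 15.8 and 15.6 CPM in parental cells. The libraries of labelled KO clone 2 lay just above the parental ones and those of labelled KO clone 1 far above. The log2 fold change was 2.12 ± 0.06 (SE) in labelled KO clone 1 (adjusted p 1.25e-14) and 0.25 ± 0.06 in labelled KO clone 2 (adjusted p 0.00229). With the clones as replicates it was 1.50 ± 0.64 (adjusted p 0.165).

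Nr4a1 (Nur77), the nuclear receptor of the set (15:101254269-101274795, plus strand), also went opposite ways in the 2 clones. It had 85.4 and 85.6 CPM in labelled KO clone 1, 17.6 and 20.2 CPM in labelled KO clone 2, and 51.5 and 53.4 CPM in parental cells. Labelled KO clone 1 lay above both parental libraries and labelled KO clone 2 below both. The log2 fold change was 0.70 ± 0.06 (SE) in labelled KO clone 1 (adjusted p 2.24e-08) and -1.47 ± 0.06 in labelled KO clone 2 (adjusted p 3.49e-12), against 0.02 ± 0.73 with the clones as replicates (adjusted p 0.989). With single libraries as replicates the contrast averages the log2 fold changes of the 2 clones, and lay at -0.39 (adjusted p 6.41e-06). With the clones as replicates a shared mean level is fitted, which leans to the clone with the higher level. The 2 values are therefore different measures.

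**Figure D2:**
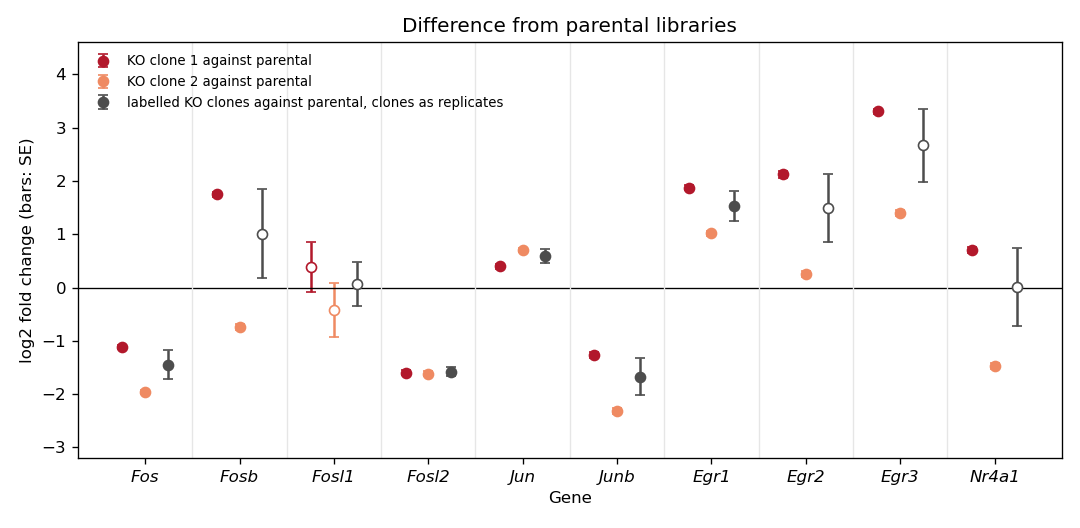
Log2 fold change of each gene against parental libraries, with bars for the SE: labelled KO clone 1, labelled KO clone 2, and the 2 clones as replicates. Filled points passed the test at an adjusted p under 0.05, open points did not. Fosl2 sits at -1.60 in labelled KO clone 1 and -1.62 in labelled KO clone 2, while Fosb sits at 1.75 in labelled KO clone 1 and -0.75 in labelled KO clone 2.

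The clones differed from each other in 8 of the 10 genes, 1 higher and 7 lower in labelled KO clone 2 than in labelled KO clone 1, where 36.4% of 23400 genes were called (16.1% higher and 20.3% lower). Jun was the gene that was higher, by 0.31 ± 0.04 (SE) on the log2 scale (adjusted p 2.13e-05). The lower ones ran from Fos at -0.84 ± 0.04 and Egr1 at -0.86 ± 0.04, through Junb at -1.04 ± 0.06, Egr2 at -1.87 ± 0.06 and Egr3 at -1.91 ± 0.05, to Nr4a1 at -2.18 ± 0.06 and Fosb at -2.49 ± 0.06. Their adjusted p values ran up to 6.20e-10. The median of the 10 was -0.95, against -0.01 over all genes. Fosl1 (-0.80 ± 0.49, adjusted p 0.225) and Fosl2 were the members that did not pass, and Fosl1 passed without library 1 of labelled KO clone 2 (-1.92, adjusted p 0.0352). Proliferation markers were also lower in labelled KO clone 2 than in labelled KO clone 1, in 8 of 8 genes, with a median of -0.66. So were 5 of 8 neuron markers, with a median of -0.37. Astrocyte markers went the other way, with 6 of 9 higher and 0 lower (median 0.49). Of 8 oligodendrocyte lineage markers tested, 4 were higher and 1 lower (median 0.39). The part of these lists in the differences of the immediate early genes was not tested.

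Levels of different genes can be set side by side only per length of exon, in CPM per kb. The length used is that of all annotated exons of a gene merged, not of the transcript expressed. Close ranks and ratios between genes therefore depend on it, and the spread between libraries does not cover this. Egr1 led in both clones, at 599 ± 21.4 CPM per kb in labelled KO clone 1 and 331 ± 0.577 in labelled KO clone 2, against 163 ± 4.43 in parental cells. Fos led in parental cells, at 351 ± 2.55 CPM per kb, against 162 ± 2.56 in labelled KO clone 1 and 90.2 ± 0.258 in labelled KO clone 2. The ratio of Egr1 to Fos per kb was 3.84 and 3.57 in labelled KO clone 1, 3.68 and 3.66 in labelled KO clone 2, and 0.459 and 0.472 in parental cells. The ratios of the 2 clones overlapped, although both genes differed between them.

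In labelled KO clone 1 the order per kb was Egr1, Fos, Jun, Egr3, Junb, Nr4a1, Egr2, Fosb, Fosl2 and Fosl1, with no overlap between neighbours. In labelled KO clone 2 it was Egr1, Fos, Jun, Junb, Egr3, Egr2, Nr4a1, Fosl2, Fosb and Fosl1, where Fos overlapped with Jun (89.5 ± 2.21 CPM per kb), and Egr2 with Nr4a1. In parental cells it was Fos, Egr1, Junb, Jun, Nr4a1, Fosl2, Egr2, Fosb, Egr3 and Fosl1, with no overlap between neighbours. Jun stood above Junb in both clones, with per-kb ratios of 2.68 and 2.59 in labelled KO clone 1 and 6.94 and 6.45 in labelled KO clone 2, and below it in parental cells, with 0.821 and 0.832.

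Within the Fos family, Fos made up 89.4% ± 0.0150 of the CPM per kb in labelled KO clone 1, 92.7% ± 0.163 in labelled KO clone 2 and 95.1% ± 0.00663 in parental cells. Fosb took 8.08% ± 0.0364 in labelled KO clone 1, 2.67% ± 0.102 in labelled KO clone 2 and 1.18% ± 0.0515 in parental cells. The summed level of the family was 179 to 183 CPM per kb in labelled KO clone 1, 97.2 to 97.3 in labelled KO clone 2 and 367 to 371 in parental cells. Within the Jun family, with Jund added, Junb took 20.5% ± 0.745 in labelled KO clone 1, 8.93% ± 0.347 in labelled KO clone 2 and 35.7% ± 0.637 in parental cells. Jun took 53.9% ± 0.717 in labelled KO clone 1, 59.8% ± 0.777 in labelled KO clone 2 and 29.5% ± 0.241 in parental cells. The Egr family was nearly all Egr1, at 91.8% ± 0.112 in labelled KO clone 1, 95.8% ± 0.0981 in labelled KO clone 2 and 94.9% ± 0.161 in parental cells. Its sum was 637 to 669 CPM per kb in labelled KO clone 1, 345 to 345.4 in labelled KO clone 2 and 169 to 175 in parental cells.

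**Figure D3:**
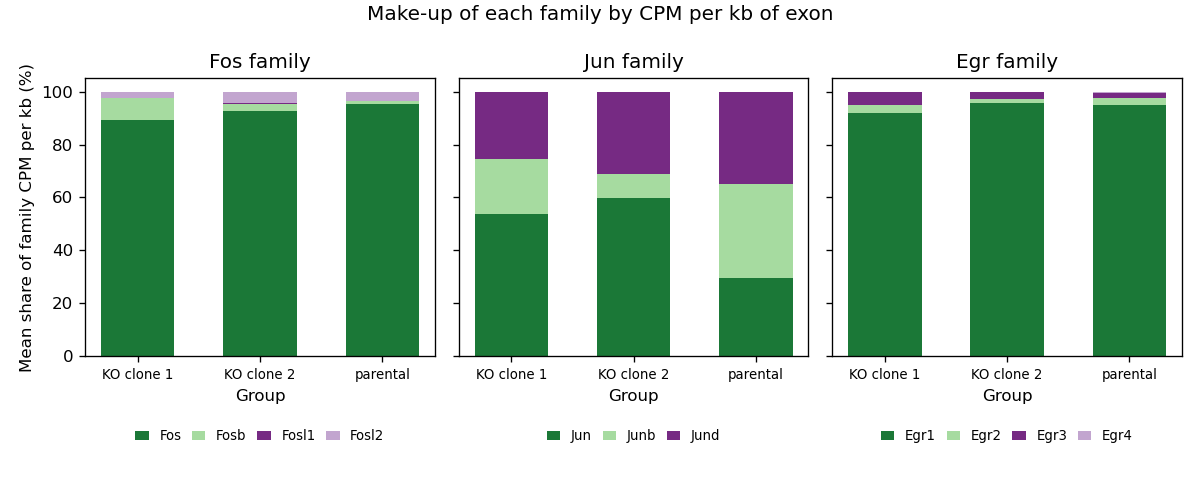
Mean share of each gene in the CPM per kb of exon of its family, in percent, for labelled KO clone 1, labelled KO clone 2 and parental cells; Jund and Egr4 complete the families. Junb makes up 20.5% of the Jun family in labelled KO clone 1, 8.93% in labelled KO clone 2 and 35.7% in parental cells.

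Among the kinases and factors that act upstream, 6 of 22 were higher in the labelled KO clones and 16 did not pass the test (median log2 fold change 0.15). The background for this and the next lists is the 13.0% of all genes called higher and 13.6% called lower, with a median of 0.03. Srf, the factor that binds the CArG box, had 63.3 ± 0.168 CPM in labelled KO clone 1, 40.5 ± 2.22 CPM in labelled KO clone 2 and 28.4 ± 0.848 CPM in parental cells, a log2 fold change of 0.90 ± 0.21 (SE; adjusted p 0.0331). Mapk8, which encodes JNK1 and so a kinase of Jun, rose by 0.62 ± 0.13 (adjusted p 0.0213). Rps6ka5 (MSK1) and Rps6ka1 (RSK1), kinases that ERK activates, rose by 0.43 ± 0.10 (adjusted p 0.0310) and 0.57 ± 0.14 (adjusted p 0.0364). Leaving out parental library 1 or 2 ended the calls of these 4 (adjusted p 0.125 to 0.394). Leaving out library 2 of labelled KO clone 1 left 1 of the 22 called, and upper quartile scaling left 2. With each clone set against parental cells, the other JNK genes on the list did not rise in both clones as Mapk8 did. Mapk10 (JNK3) changed by -1.79 ± 0.07 (SE) in labelled KO clone 1 and -0.75 ± 0.07 in labelled KO clone 2. Mapk9 (JNK2) changed by 0.07 ± 0.05 in labelled KO clone 1, not called. It was called higher in labelled KO clone 2, by 0.20 ± 0.05 (adjusted p 0.00508).

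Genes that end the response, by binding Egr proteins, dephosphorylating kinases or destroying RNA or protein, were higher in 9 of 16 and lower in 1 (median 0.65). Dusp6, the phosphatase of ERK, had 509 and 500.2 CPM in labelled KO clone 1, 321 and 309 CPM in labelled KO clone 2, and 15.2 and 15.0 CPM in parental cells. Its log2 fold change was 4.79 ± 0.26 (SE; adjusted p 0.000393). Dusp4, another ERK phosphatase, rose by 2.64 ± 0.14 (adjusted p 0.000375), Dusp1 by 2.39 ± 0.12 (adjusted p 0.000360), and Trib2, an adaptor for the ligase COP1, by 2.68 ± 0.11 (adjusted p 0.000267). Nab2, a corepressor of Egr proteins chosen after its values were seen, rose by 1.11 ± 0.20 (adjusted p 0.0151). It averaged 47.9 ± 0.355 CPM in labelled KO clone 1, 32.2 ± 0.868 CPM in labelled KO clone 2 and 18.9 ± 1.27 CPM in parental cells. Nab1, the other NAB gene on the list, changed against parental cells by 0.84 ± 0.06 (SE) in labelled KO clone 1. In labelled KO clone 2 Nab1 changed by 0.13 ± 0.07 and was not called. With parental library 1 or 2 left out, 6 or 5 of the 16 were called, all higher.

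Of 25 other immediate early genes, 7 were higher and 4 lower (median -0.02). Plk2, a kinase induced by neuronal activity, had 162 and 176 CPM in labelled KO clone 1, 228 and 232 CPM in labelled KO clone 2, and 31.8 and 32.0 CPM in parental cells, a log2 fold change of 2.68 ± 0.17 (SE; adjusted p 0.000624). Dusp1, which also stands on the list of repressors, and Klf10, a TGF-beta-induced zinc finger factor (1.35 ± 0.08, adjusted p 0.000592), were higher too. Gadd45b, a stress response gene, fell by 1.73 ± 0.14 (adjusted p 0.00107). The calls of Dusp1, Klf10, Plk2 and Gadd45b were kept with each library left out in turn.

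**Figure D4:**
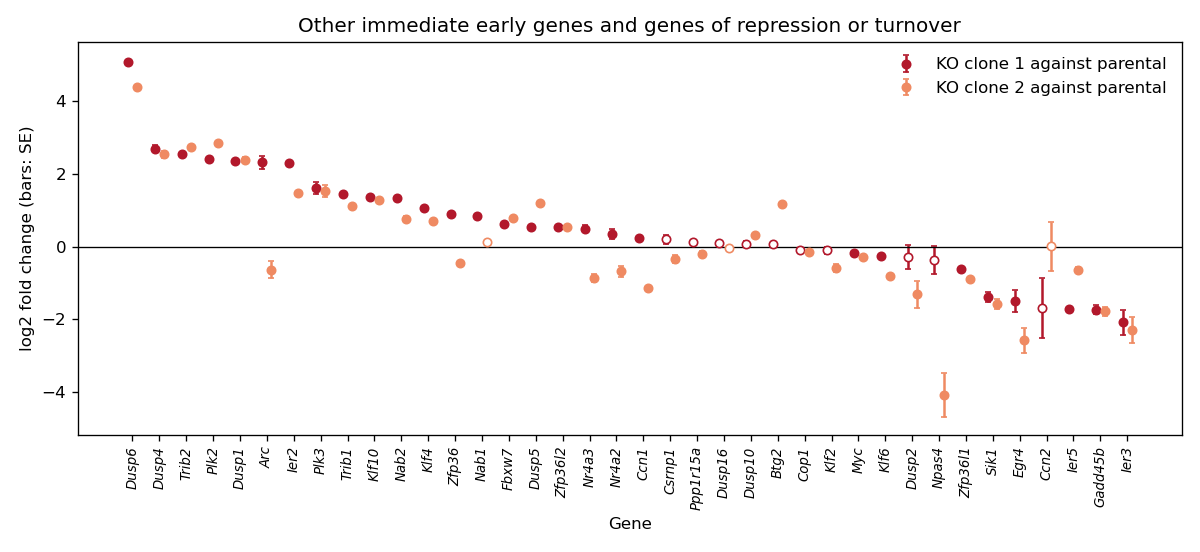
Log2 fold change against parental libraries of the other immediate early genes and the genes of repression or turnover, in labelled KO clone 1 and labelled KO clone 2, ordered by labelled KO clone 1, with bars for the SE. Filled points passed the test at an adjusted p under 0.05; Dusp6 stands highest in both, at 5.06 in labelled KO clone 1 and 4.38 in labelled KO clone 2.

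Of 14 other proteins that can pair with Fos or Jun, 12 were tested, 2 were higher and 5 lower (median -0.22). Atf3, a stress-induced partner of Jun, had 1.66 and 2.20 CPM in labelled KO clone 1, 2.76 and 2.55 CPM in labelled KO clone 2, and 13.1 and 13.4 CPM in parental cells (log2 fold change -2.49 ± 0.21, SE; adjusted p 0.00126). Batf3, a partner of Jun best known from dendritic cells, had 4 and 13 counts in labelled KO clone 1, 0 and 1 in labelled KO clone 2, and 84 and 81 in parental cells (adjusted p 0.0159). Atf4, a basic leucine zipper factor of the stress response, rose by 0.61 ± 0.09 (adjusted p 0.00744). Jund, the Jun family member expressed without a stimulus, chosen after its values were seen, fell by 0.64 ± 0.16 (adjusted p 0.0412). Without parental library 1, and likewise without parental library 2, 1 of the 12 was called, lower, and Atf4 and Batf3 missed the threshold (adjusted p 0.125 to 0.178).

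Of 22 genes known as AP-1 targets in other settings, 18 were tested, 3 were higher and 7 lower (median -0.66). Ccnd1, cyclin D1, had 281 and 295 CPM in labelled KO clone 1, 478 and 489 CPM in labelled KO clone 2, and 45.4 and 43.4 CPM in parental cells (log2 fold change 3.15 ± 0.27, SE; adjusted p 0.00158). Gja1, connexin 43 and also an astrocyte marker above, had 0.412 and 0.699 CPM in labelled KO clone 1, 1.06 and 1.14 CPM in labelled KO clone 2, and 435 and 428 CPM in parental cells (adjusted p 0.000299). Met, the receptor for hepatocyte growth factor, had 0.172 ± 0.0161 CPM in labelled KO clone 1, 0.684 ± 0.164 CPM in labelled KO clone 2 and 137 ± 0.962 CPM in parental cells (adjusted p 0.00192). Cd44, an adhesion receptor, fell by 0.82 ± 0.10 (adjusted p 0.00481). Without parental library 1, 3 of 17 were called and Met and Cd44 missed the threshold (adjusted p 0.151 and 0.0520); without parental library 2, 5 of 19 were called and Met missed it (0.157).

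The genes whose pattern over the 6 libraries lay nearest to that of a member were found by the root mean square distance of centred log2 CPM among 11020 genes. For Fos these were Igsf10 (0.0370), Ehd2 (0.0521) and Rims2 (0.0785), with Igsf10 at 80.3 ± 0.548 CPM in labelled KO clone 1, 43.3 ± 0.905 CPM in labelled KO clone 2 and 178 ± 2.32 CPM in parental cells. For Jun they were Rps6ka1 (0.0168), Kbtbd11 (0.0232) and Grip1 (0.0248). For Egr1 they were Ccser2 (0.0583), Alpl (0.0595) and Nup210 (0.0616), with Ccser2 at 614 ± 47.8 CPM in labelled KO clone 1, 318 ± 8.68 CPM in labelled KO clone 2 and 170.4 ± 5.18 CPM in parental cells. With 3 groups of 2 libraries, a likeness rests on 3 group levels.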

How the data were processed

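RNA of 6 libraries of mouse neural progenitor cells was sequenced by the authors. The deposited file holds whole-number counts per gene, not normalized, and the submitters' processing notes name STAR, featureCounts and the builds GRCm38.p6 and mm10, without versions; the strand setting was not stated there. Groups were taken from the sample titles. Exon lengths and positions came from a GENCODE annotation of GRCm38, in which 41869 of 42365 IDs were found. The counts were tested in edgeR 4.0.16 (limma 3.58.1, R 4.3.3) after filterByExpr with a minimum count of 10 and TMM scaling. The test was the quasi-likelihood F test with robust dispersions, over the whole table, with Benjamini-Hochberg adjustment at 0.05. For labelled KO against parental, the libraries of each labelled KO clone were added and the 2 parental libraries were entered singly. This left 4 columns, 24506 genes and 2 residual degrees of freedom. The 2 clones share a fitted mean level here, so the log2 fold change leans to the clone with the higher level. The alternative with single libraries averages the log2 fold changes of the clones instead. The clone comparisons came from 1 fit of 6 libraries in 3 groups, with 23400 genes and 3 residual degrees of freedom. The SE is the size of the log2 fold change divided by the square root of F. CPM were computed here from the counts and the TMM-scaled totals. The libraries of a group differed by more than sampling noise (chi-square per gene of 22.1, 4.92 and 3.48 for labelled KO clone 1, labelled KO clone 2 and parental). The scripts were tested on simulated data.

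The 10 genes and the lists were chosen with earlier results of these data known. All 10 genes are named in every comparison, and from each related list the 4 with the smallest adjusted p for the clones against parental, of which some are not reported here, nor is a check of the edited gene; likeness used genes averaging 5 CPM or more and a prior count of 2. Alternatives were DESeq2 1.42.0 and its size factors, no filter, upper quartile scaling, a filter at 5 CPM, a replicate block, single libraries as replicates, and leaving out each library in turn.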

Additional observations from a re-analysis of the deposited data

Results flagged for a closer look

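For 8 of the 10 genes the effect against parental cells differed between the clones by a test of that difference (labelled KO clone 2 minus labelled KO clone 1 in the fit of 6 libraries, edgeR), where 36.4% of all 23400 genes tested also differed. These are the values of the contrast between the clones above. The difference in log2 fold change was -0.84 for Fos, -2.49 for Fosb, 0.31 for Jun, -1.04 for Junb, -0.86 for Egr1, -1.87 for Egr2, -1.91 for Egr3 and -2.18 for Nr4a1. Fosb and Nr4a1 were above parental cells in labelled KO clone 1 and below them in labelled KO clone 2, while Fos, Jun, Junb, Egr1, Egr2 and Egr3 kept 1 direction in both. The test rests on 2 libraries of each clone, and clone, culture and library cannot be told apart. No group had enough libraries to look for a single library far from the rest.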

How the results depend on the processing

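Labelled KO clone 1 against parental and labelled KO clone 2 against parental had 9 of the 10 genes called under all 12 alternatives each, and labelled KO clone 2 against labelled KO clone 1 had 8 to 9. With the clones as replicates, 5 were called; this became 3 with no filter (Fos and Junb missed the threshold, adjusted p 0.0607 and 0.101), 6 with the DESeq2 test or a filter at 5 CPM (Egr3 added), 9 with single libraries as replicates, and 1 to 6 with a library left out. Over all genes, the 6532 calls became 2544 and 2529 without parental library 1 and 2, 13213 with single libraries as replicates and 3795 with a filter at 5 CPM, where fewer genes were tested. Except as said, the cause was not tested. In the main setting, 54.5% of all 23400 genes tested were called for labelled KO clone 1 against parental cells. The share was 53.5% for labelled KO clone 2 against parental cells and 36.4% for labelled KO clone 2 against labelled KO clone 1.

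The following log2 fold changes turned sign. With single libraries the value is the average of the clones' log2 fold changes. With the clones as replicates it comes from a shared mean level, so these are different measures. With the clones as replicates, Fosl1 was -0.00425 with upper quartile scaling, -0.0208 with single libraries and -0.16 to 0.31 with a library left out; Nr4a1 was -0.0591 with upper quartile scaling, -0.0458 with the filter at 5 CPM, -0.35 with the replicate block, -0.39 with single libraries (adjusted p 6.41e-06) and -0.00895 to 0.0432 with a library left out. For labelled KO clone 2 against labelled KO clone 1, Fosl2 was 0.00519 with upper quartile scaling, 0.000383 with no filter, 0.0121 with the filter at 5 CPM and -0.0167 to 0.00567 with a library left out, Dusp1 was -0.0101 to 0.11 and Gadd45b -0.24 to 0.22. For labelled KO clone 2 against parental, Fosl1 was -1.52 to 0.23.

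Replicate numbers did not pair the samples (correlations of same-numbered deviations 0.0191, -0.00746 and -0.0152). The replicate block left 5, 9, 9 and 8 of the 10 genes called in the 4 comparisons. With the clones as replicates, the block set labelled KO clone 1 beside parental library 1 and labelled KO clone 2 beside parental library 2. The correlations do not bear on that pairing. The 2 clones and 2 residual degrees of freedom limit what the genotype comparison can show, and 6 to 26 counts limit Fosl1.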
